A study of Homo sapiens with 54 samples.

Results

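A set of 10 genes of the oxygen-sensing pathway, namely HIF1A, EPAS1, HIF3A, ARNT, VHL, EGLN1, EGLN2, EGLN3, HIF1AN and SLC23A2, was followed through every library of a dopamine study in human striatal-type neurons. The genes were chosen by name, with earlier results of these data known, and are 10 of the 60676 genes in each deposited table. Each symbol named exactly 1 gene in each of the 53 tables, and all 10 passed the filter on low counts in every comparison.

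Hypoxia-inducible factors (HIFs) are transcription factors made of an oxygen-regulated alpha subunit (HIF1A, EPAS1, which encodes HIF-2α, or HIF3A) and the stable partner ARNT. When oxygen is present, the prolyl hydroxylases encoded by EGLN1, EGLN2 and EGLN3 hydroxylate the alpha subunit, and the VHL ubiquitin ligase then marks it for degradation, while HIF1AN hydroxylates an asparagine and so weakens its transcriptional activity. These hydroxylases use iron and oxygen, and ascorbate supports them as a reducing cofactor. SLC23A2 carries ascorbate into neurons. Because the alpha subunits are controlled mainly as proteins, their transcripts describe how much messenger RNA is present and not how active the factors are. EGLN1, EGLN3 and part of the HIF3A transcripts are themselves known to be induced by HIF.

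The libraries were RNA-seq of hMSN-like cells, that is, cells resembling medium spiny neurons, made from H9, an embryonic stem cell line, with Activin A. In the dopamine experiments, made once with 1 mM and once with 1 µM dopamine, RNA was taken 1 h or 24 h after a single dose (Acute 1 h, Acute 24 h) or after the last of 5 daily doses (Chronic 1 h, Chronic 24 h), and the controls received PBS. In the time course, cells received 1 mM dopamine on 2, 3, 4 or 5 days (2 Day to 5 Day) and RNA was taken 1 h after the last dose, with an ascorbic acid (AA) vehicle as the control. In the agonist experiment, cells received 50 µM SKF82958, an agonist of D1-like receptors, or 50 µM Quinpirole, an agonist of D2-like receptors, and the controls received Water. Groups held 3 libraries, except 5 Day with 2. All groups share 1 stem cell line and 1 differentiation protocol. The study's methods describe dopamine as dissolved together with ascorbic acid, and whether PBS also held it is not given in the sources used here, so that in a comparison with PBS an effect of dopamine and one of ascorbic acid cannot be told apart. The control of the time course is labelled as ascorbic acid. Acute and chronic cultures also differed in age, and each dopamine experiment had 1 PBS group for both. The age of the PBS cultures is not given in the sources used here. Culture age and dosing therefore cannot be told apart in the acute comparisons with PBS, the chronic ones or both. Each vehicle belongs to its own experiment.

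Exon reads per library ranged from 5755919 to 27702963, apart from replicate 1 of Quinpirole, which held 137051 exon reads with 96.67% of its 4121674 gene reads on introns. In that library the members had 2 to 20 exon reads each, and it is left out where stated. Replicate 1 of 1 mM Acute 24 h had 0.8261% of its exon reads on mitochondrial genes, against 2.491% and 2.578% in the other libraries of that group. Replicate 2 of 1 µM PBS, 1 µM Acute 1 h and 1 µM Chronic 1 h held 12.39% to 12.76% mitochondrial reads, where the lowest library of the 1 µM experiment held 4.247%. The share of gene reads on introns was 12.26% to 13.21% at 1 mM Acute 1 h and 12.49% to 15.86% at 1 mM Acute 24 h, against 19.53% to 21.81% in 1 mM PBS. Among 6 neuronal markers, MAP2 (median 459.9 TPM), TUBB3 and STMN2 were high. SYT1 (162.0) and SNAP25 (121.3) were lower, and RBFOX3 was the lowest of them at 11.87 TPM. The 10 medium spiny neuron markers had medians from 1.632 (DRD1) to 44.63 (BCL11B). Among them GAD1 was at 15.3, PPP1R1B at 14.37, ARPP21 at 12.52 and DRD2 at 3.694 TPM. The progenitor markers SOX2 (505.2), VIM (1298) and MKI67 (76.70) were also present. The cultures held progenitors beside neurons, and in bulk RNA fewer cells of a type and less RNA per cell cannot be told apart.

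TPM, a transcript abundance per exon length that sums alike over each library, can be compared between genes. Over the 52 libraries without replicate 1 of Quinpirole, HIF1A was the most abundant member, with a lowest, median and highest level of 94.85, 127.9 and 233.3 TPM. EPAS1 was far lower, at 1.963, 8.963 and 20.14 TPM, and HIF3A lay between at 10.29, 22.29 and 79.45 TPM. Their partner ARNT was at 20.21, 35.08 and 61.34 TPM. Among the prolyl hydroxylases EGLN1 led with a median of 74.17 TPM, EGLN2 followed with 39.94 TPM and EGLN3 had the lowest level of all members, with a median of 4.347 TPM. VHL had a median of 83.71 TPM, SLC23A2 of 48.03 TPM and HIF1AN of 18.47 TPM. In the median library 74.5% of the exon reads of VHL, 36.6% of EGLN1 and 24.8% of EGLN2 were uniquely mapped. The levels of VHL, EGLN1 and EGLN2 thus rest partly on reads that were not uniquely mapped, which limits their comparison with other genes. The exon reads behind these levels were 963 to 4551 per library for HIF1A, 43 to 532 for EPAS1 and 38 to 505 for EGLN3. EPAS1 and EGLN3 thus rested on the fewest reads of the members.

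**Figure D1:**
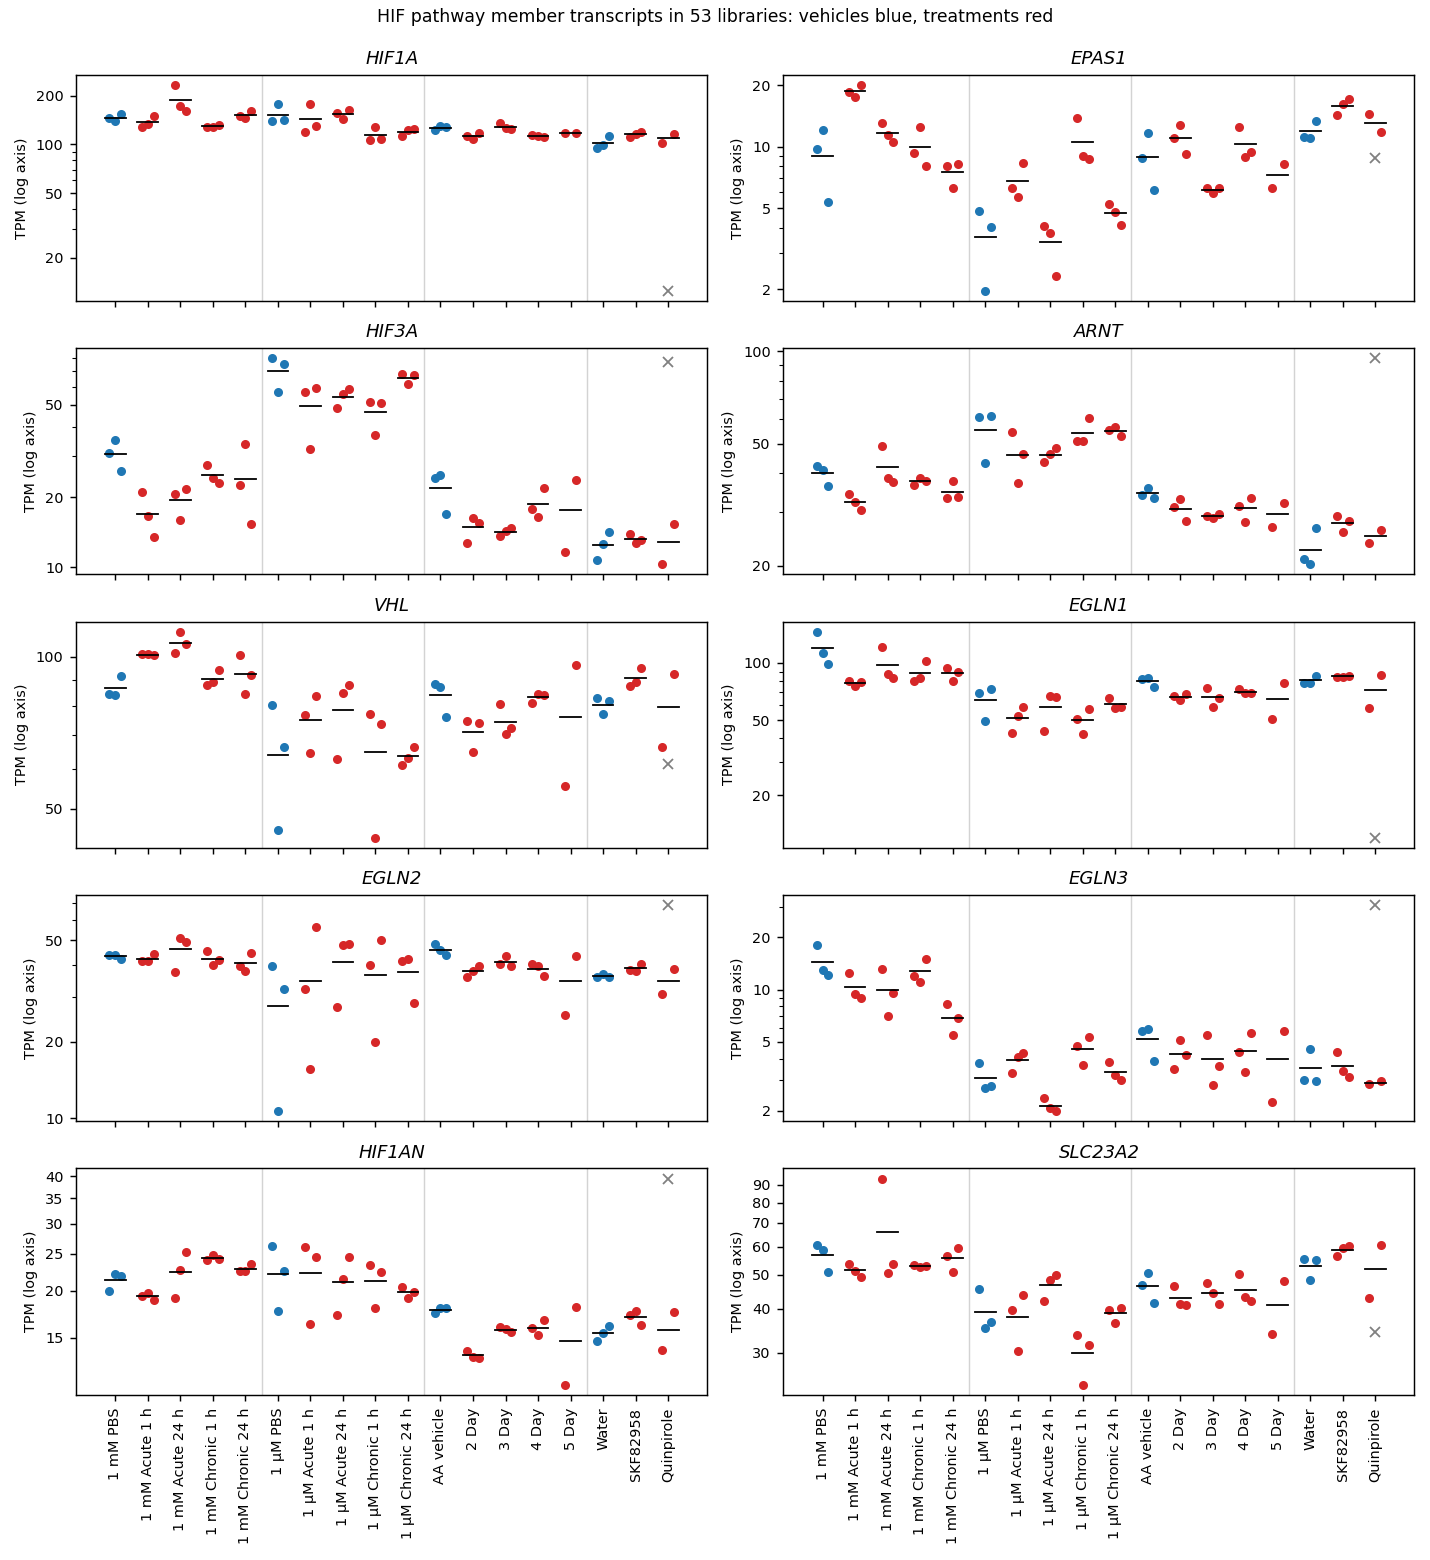
TPM (log axis) of the 10 members in each library, grouped by condition along the x axis. Filled points are single libraries, black bars are their means and grey crosses mark replicate 1 of Quinpirole, which held 137051 exon reads. Apart from replicate 1 of Quinpirole, HIF1A ranged from 94.85 to 233.3 TPM with a median of 127.9 TPM. HIF3A, EPAS1 and EGLN3 shifted several-fold between experiments.

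The spread between conditions was widest for EGLN3, HIF3A and EPAS1. The mean TPM of the highest condition was 6.721 times that of the lowest for EGLN3 (14.41 in 1 mM PBS, 2.144 in 1 µM Acute 24 h), 5.631 times for HIF3A (70.39 in 1 µM PBS, 12.50 in Water) and 5.520 times for EPAS1 (18.72 at 1 mM Acute 1 h, 3.391 at 1 µM Acute 24 h). For the other 7 members this ratio lay between 1.675 (EGLN2) and 2.449 (ARNT). These ratios leave out Quinpirole. When the 18 conditions, Quinpirole with all its libraries included, were ordered by level, each member's libraries overlapped in at least 14 of 17 neighbouring pairs. Neighbours in such an order have close means by construction, so this overlap says little about the spread of a member.

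Much of this spread lay between the vehicles. EGLN3 was at 18.07, 13.00 and 12.16 TPM in the 3 libraries of 1 mM PBS, at 3.789, 2.712 and 2.790 TPM in 1 µM PBS, at 5.779, 5.925 and 3.865 TPM in AA vehicle and at 3.014, 4.524 and 2.985 TPM in Water. EGLN3 was thus higher in the PBS libraries of the 1 mM experiment than in any other vehicle library. EGLN1 was likewise highest in 1 mM PBS and lowest in 1 µM PBS, with 146.0, 113.4 and 98.39 TPM in 1 mM PBS and 69.19, 49.29 and 73.06 TPM in 1 µM PBS, and with 74.26 to 85.58 TPM in AA vehicle and Water. HIF3A differed in another way, since the libraries of 1 µM PBS stood highest with 79.45, 57.01 and 74.72 TPM, above 31.15, 35.32 and 25.92 TPM in 1 mM PBS, 24.10, 24.90 and 16.97 TPM in AA vehicle and 10.77, 12.60 and 14.13 TPM in Water. EPAS1 was lowest in 1 µM PBS, at 4.847, 1.963 and 4.033 TPM, against 5.336 to 13.45 TPM in the other vehicles. For HIF1A, PBS of both experiments lay at 139.8 to 176.8 TPM, above AA vehicle at 123.6 to 129.5 TPM and Water at 94.85 to 112.4 TPM. SLC23A2 was at 50.70 to 60.45 TPM in 1 mM PBS and 48.26 to 55.33 TPM in Water, and at 35.20 to 45.52 TPM in 1 µM PBS and 41.64 to 50.51 TPM in AA vehicle. CPM here scales reads by library size with TMM factors over all libraries, which make values relative to the typical gene, and not by exon length. In CPM, HIF1A was at 169.2 to 186.4 in 1 mM PBS and at 176.1 to 191.2 in AA vehicle. On that scale the higher mean of 1 mM PBS turned into a lower one (175.9 against 183.5). SLC23A2 overlapped in CPM between 1 mM PBS (89.84 to 105.2) and AA vehicle (91.36 to 104.5). These orders are descriptions, since a difference between vehicles and a difference between experiments cannot be told apart.

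At 1 h after a single dose of 1 mM dopamine, EPAS1 rose while HIF3A and EGLN1 fell. EPAS1 was at 18.51, 17.52 and 20.14 TPM against 9.755, 12.06 and 5.336 TPM in PBS, so the groups did not overlap, and its log2(fold change) was 1.12 ± 0.23 (SE) with an adjusted p of 0.00691. EPAS1 encodes the alpha subunit HIF-2α, best known from endothelial and catecholamine-producing cells. HIF3A, whose shorter products can restrain the other alpha subunits, was at 21.00, 16.56 and 13.47 TPM against 31.15, 35.32 and 25.92 TPM, all below the controls, with a log2(fold change) of -0.79 ± 0.24 and an adjusted p of 0.0405. EGLN1, the main oxygen sensor among the prolyl hydroxylases, was at 80.70, 75.13 and 79.32 TPM against 146.0, 113.4 and 98.39 TPM, again without overlap, with -0.54 ± 0.14 and an adjusted p of 0.0181. The 3 members past the test stand beside 16.0% of all 17804 genes tested in this comparison (8.04% higher, 7.94% lower).

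EPAS1 was also past the study's rule for DEGs (adjusted p under 0.05, log2(fold change) at or beyond 1 in either direction and at least 1 TPM on average in the higher group), which 4.10% of genes passed. It stayed past the test when any 1 library of either group was left out, with values from 0.84 to 1.36. HIF3A lost the call without any single PBS library or without replicate 2 or 3 of Acute 1 h, although its value stayed between -0.96 and -0.67. EGLN1 lost it without replicate 1 of PBS (-0.39, adjusted p = 0.0775) or without any single library of Acute 1 h, and also when intron reads were counted (-0.32, adjusted p = 0.0678). About 36.6% of the exon reads of EGLN1 were uniquely mapped in the median library, and an annotated protein-coding gene overlaps it on the same strand. With uniquely mapped exon reads alone EGLN1 stayed past the test.

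The other members at 1 mM Acute 1 h did not pass. VHL, the substrate receptor of the ubiquitin ligase, was at 101.0, 101.3 and 100.6 TPM against 84.16, 84.09 and 91.39 TPM, with 0.29 ± 0.09 and an adjusted p of 0.0533. ARNT was at 34.22, 32.36 and 30.43 TPM against 42.40, 41.15 and 36.39 TPM, with -0.24 ± 0.09 and an adjusted p of 0.0882. For both the TPM of the groups did not overlap, as held for 6 of 10 members and for 53.5% of all genes. HIF1A was at 128.4, 134.1 and 150.7 TPM against 144.6, 139.8 and 153.7 TPM, which overlapped, with -0.02 ± 0.09. SLC23A2 differed by -0.08 ± 0.14 and EGLN2 by 0.03 ± 0.14. EGLN3 was at 12.47, 9.472 and 8.959 TPM against 18.07, 13.00 and 12.16 TPM, with -0.42 ± 0.21 and an adjusted p of 0.200. When intron reads were counted as well, EGLN3 passed at -0.86 (adjusted p = 0.000447) and VHL at 0.51 (adjusted p = 0.00123), while the share of intron reads was lower in the treated libraries as given above. The part of that share in these differences was not tested.

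EPAS1 is abundant in endothelial cells, so markers of other cell types are given beside it. Of the 5 endothelial markers, PECAM1 and CDH5 were near 0 in the 52 libraries, with medians of 0.04587 and 0.06998 TPM. TEK and KDR had medians of 0.6523 and 0.8135 TPM, and CLDN5 one of 8.745 TPM. None of the 3 endothelial markers that could be tested (of 5) passed at 1 mM Acute 1 h, and their summed level was 13.19 to 14.64 TPM against 11.76 to 24.22 TPM in PBS. Of 6 markers of pericytes and mesenchymal cells 1 rose and 1 fell, with a summed level of 82.40 to 90.07 TPM against 68.80 to 84.37 TPM. Of 6 neuronal markers none rose and 2 fell, with 2858 to 3160 TPM against 3137 to 3571 TPM. Markers of medium spiny neurons were lower in sum (118.7 to 123.1 against 132.1 to 151.4 TPM, 1 of 10 higher and 1 lower past the test), as were those of astroglia (106.1 to 111.2 against 115.4 to 151.1 TPM, 1 of 5 lower past the test). Markers of the oligodendrocyte lineage were higher in sum, with 12.28 to 15.17 against 9.433 to 9.996 TPM and none of 4 past the test. The part of these markers in the change of EPAS1 was not tested.

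**Figure D2:**
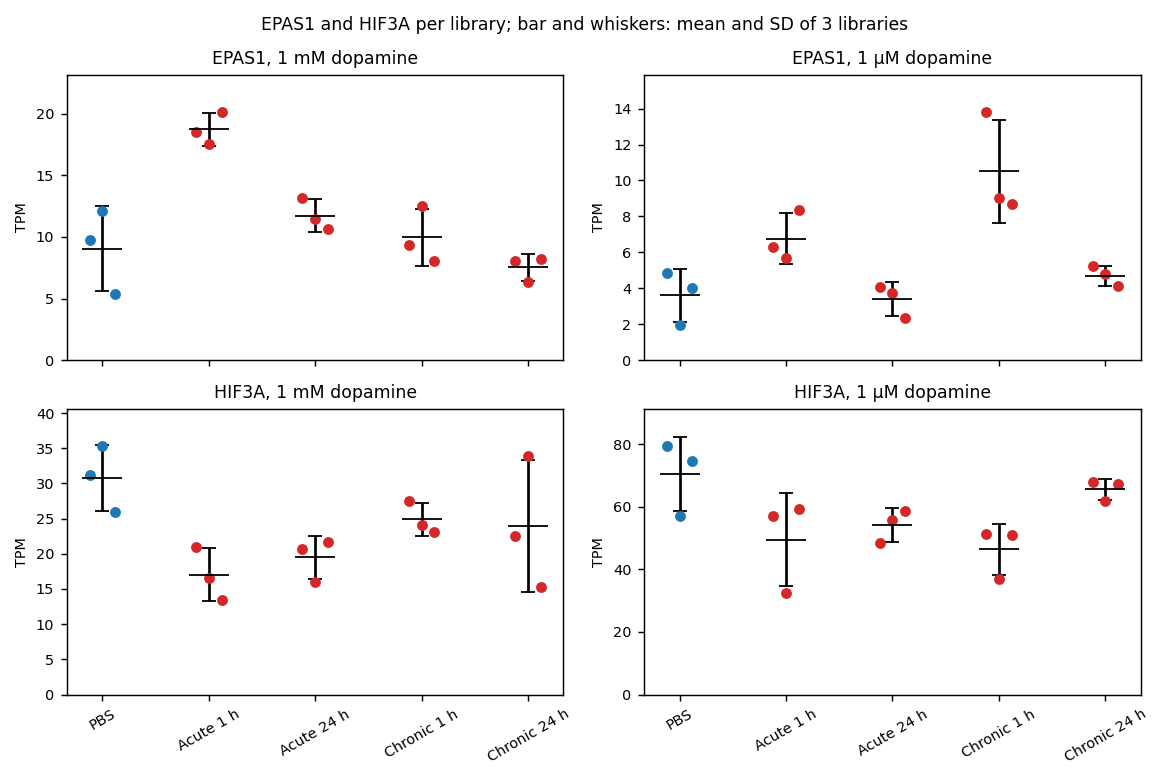
EPAS1 and HIF3A in TPM in the libraries of both dopamine experiments. Points are libraries and bars are means with SD (n = 3 per condition). EPAS1 is highest at 1 mM Acute 1 h (17.52 to 20.14 TPM) and at 1 µM Chronic 1 h (8.710 to 13.82 TPM), and HIF3A is lower than in PBS at Acute 1 h in both experiments, with 2 libraries of 1 µM Acute 1 h (57.03 and 59.30) inside the range of their controls.

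The stretches before the annotated starts of these genes are printed to show which members carry the core of the hypoxia response element. HIF dimers bind the letters ACGTG or GCGTG, which were searched on both strands of the 250 bases upstream of each start (the letters of ACGTG overlap themselves on the opposite strand in CACGTG). The sequences come from RefSeq, build GRCh38.p14, are written 5′ to 3′ on the strand of the gene, and have the matched letters in capitals. HIF3A is shown because it passed the test at Acute 1 h of both doses (first of 3 starts, chr19:46296792-46297041, plus strand), and the others were chosen after their values were seen, as the members that passed against PBS in at least 1 comparison (EPAS1, chr2:46297157-46297406, plus strand, EGLN1, chr1:231422288-231422537, minus strand, and EGLN3, chr14:33951075-33951324, minus strand).
HIF3A: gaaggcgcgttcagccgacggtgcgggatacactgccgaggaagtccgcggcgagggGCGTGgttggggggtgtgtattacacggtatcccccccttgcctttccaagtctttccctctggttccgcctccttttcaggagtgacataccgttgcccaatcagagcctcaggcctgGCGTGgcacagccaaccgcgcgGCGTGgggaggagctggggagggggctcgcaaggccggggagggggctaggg
EPAS1: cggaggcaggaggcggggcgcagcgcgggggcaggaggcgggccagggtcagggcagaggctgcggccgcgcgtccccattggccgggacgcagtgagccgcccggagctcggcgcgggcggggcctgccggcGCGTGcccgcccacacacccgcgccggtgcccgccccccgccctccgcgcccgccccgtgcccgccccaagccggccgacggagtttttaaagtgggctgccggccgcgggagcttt
EGLN1: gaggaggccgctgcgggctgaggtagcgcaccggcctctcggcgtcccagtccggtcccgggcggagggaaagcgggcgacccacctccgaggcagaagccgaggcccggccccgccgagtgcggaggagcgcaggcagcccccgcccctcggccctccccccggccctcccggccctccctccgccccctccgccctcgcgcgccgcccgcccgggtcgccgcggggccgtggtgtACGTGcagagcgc
EGLN3: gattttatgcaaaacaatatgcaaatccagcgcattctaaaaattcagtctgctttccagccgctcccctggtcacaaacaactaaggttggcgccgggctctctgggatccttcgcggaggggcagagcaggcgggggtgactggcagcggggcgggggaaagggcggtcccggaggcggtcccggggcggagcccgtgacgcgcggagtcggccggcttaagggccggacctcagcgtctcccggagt
HIF3A holds GCGTG 3 times, at 193, 74 and 52 bases before the start, EPAS1 holds GCGTG once at 117 bases, EGLN1 holds ACGTG once at 13 bases, and EGLN3 holds neither in this window. Of 12 starts of the 8 members with an entry (all but VHL and SLC23A2), 5 held either motif (41.7%), against 43.2% of 35116 starts of all genes. Of 35 starts of 23 HIF target genes described below, 31 held one (88.6%). A match is a run of letters and not a bound site.

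At 24 h after the single dose of 1 mM, HIF3A, EGLN1 and EGLN3 were lower than in PBS and EPAS1 no longer differed past the test. HIF3A was at 20.71, 16.03 and 21.71 TPM, all below the 25.92 TPM of the lowest PBS library, with -0.78 ± 0.24 and an adjusted p of 0.0449. EGLN3, the hydroxylase most strongly induced by HIF in many cell types, was at 13.16, 7.001 and 9.575 TPM against 18.07, 13.00 and 12.16 TPM, with -0.68 ± 0.21 and an adjusted p of 0.0466. EGLN1 was at 120.7, 87.24 and 83.41 TPM against 146.0, 113.4 and 98.39 TPM, with -0.43 ± 0.14 and an adjusted p of 0.0494. The last 2 overlapped in TPM because of replicate 1 of Acute 24 h, the library with few mitochondrial reads. In this comparison 15.5% of 17804 genes passed (8.38% higher, 7.09% lower).

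Without that replicate, EGLN1 was at -0.53 (adjusted p = 0.0101), EGLN3 at -0.85 (0.00976) and HIF3A at -0.76 (0.0397), and VHL passed as well at 0.28 (0.0123). Without replicate 1 or 2 of PBS or without replicate 2 of Acute 24 h, none of the members passed. The lowered values of EGLN1, EGLN3 and HIF3A thus kept their sign in every refit, but their calls rested on single libraries. EPAS1 was at 13.15, 11.45 and 10.60 TPM, of which the latter 2 lay within the range of PBS, with 0.25 ± 0.23 and an adjusted p of 0.455. HIF1A was at 233.3, 171.5 and 161.7 TPM against 139.8 to 153.7 TPM, with 0.24 ± 0.09 and an adjusted p of 0.0888, and the 233.3 TPM came from the library with few mitochondrial reads. The same library held the highest SLC23A2 level, 93.42 TPM against 50.61 and 53.65 TPM in its group. Of 6 neuronal markers 3 fell at 1 mM Acute 24 h, with a summed level of 1634 to 2904 TPM against 3137 to 3571 TPM, and their part in the members' values was not tested.

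After 5 daily doses of 1 mM dopamine, no member passed the test at Chronic 1 h and EGLN3 alone passed at Chronic 24 h. At Chronic 1 h 2.08% of 17804 genes passed (1.27% higher), and 2 members had an unadjusted p under 0.05. EPAS1 was at 9.304, 12.54 and 8.014 TPM, which overlapped PBS, with 0.10 ± 0.23. EGLN1 was at 80.34, 83.35 and 102.4 TPM against 146.0, 113.4 and 98.39 TPM, with -0.47 ± 0.14 and an adjusted p of 0.0963. A fit without replicate 1 of 1 mM Acute 24 h, a library in neither group, put EGLN1 (-0.47, adjusted p = 0.0103) and HIF1A (-0.22, adjusted p = 0.0302) past the test. HIF1A was at 128.4, 128.4 and 130.9 TPM, all below the 139.8 to 153.7 TPM of PBS.

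At Chronic 24 h, EGLN3 fell and was the only member past the test, beside 0.663% of all genes (0.545% lower). EGLN3 was at 8.223, 5.463 and 6.896 TPM, all below 12.16 TPM, the lowest PBS library. Its log2(fold change) of -1.10 ± 0.22 (adjusted p = 0.0380) also passed the rule for DEGs, as did 0.298% of genes. The call was lost in 5 of 6 refits that left out 1 library, all but the one without replicate 3 of PBS, with values from -1.24 to -0.91. When intron reads were counted it fell to -0.41 (adjusted p = 0.428). EGLN3 spans chr14:33924227-34462774 on the minus strand, 538548 bases that also hold SPTSSA and EGLN3-AS1, and reads in its introns cannot all be assigned to it with certainty. EGLN1 was at 94.42, 80.48 and 89.87 TPM, all below PBS, with -0.46 ± 0.14 and an adjusted p of 0.178. Progenitor markers were lower in sum at Chronic 24 h (2130 to 2213 against 2690 to 3160 TPM), with none of 6 past the test, and their part in these values was not tested.

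At 1 mM, EPAS1 was lower 1 h after the last of 5 doses than 1 h after a single dose. Chronic 1 h against Acute 1 h at 1 mM gave a log2(fold change) of -1.02 ± 0.23 (adjusted p = 0.0133) for EPAS1, with 8.014 to 12.54 TPM against 17.52 to 20.14 TPM and no overlap. It was the only member past this test, which 11.3% of all genes passed. The call was lost without replicate 3 of Acute 1 h or without replicate 1 or 3 of Chronic 1 h, with adjusted p up to 0.0684 and values from -1.21 to -0.88. Astroglial markers were higher at Chronic 1 h, with a summed level of 194.0 to 205.5 TPM against 106.1 to 111.2 TPM and 2 of 5 past the test. Progenitor markers were lower, with 2348 to 2531 against 2839 to 3123 TPM and 1 of 6 past the test. The part of these markers in this difference was not tested, and culture age and repeated dosing cannot be told apart here. At 1 µM the value had the opposite sign, with EPAS1 at 8.710 to 13.82 TPM at Chronic 1 h against 5.684 to 8.347 TPM at Acute 1 h, without overlap, and a log2(fold change) of 0.67 ± 0.28 that did not pass (adjusted p = 0.311). None of the members passed this test at 1 µM, where 1.20% of all genes did.

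With 1 µM dopamine, HIF3A fell 1 h after the single dose, and EPAS1 was higher without passing the test. HIF3A was at 57.03, 32.35 and 59.30 TPM against 79.45, 57.01 and 74.72 TPM, which overlapped because replicate 2 of PBS was low in TPM. In CPM HIF3A did not overlap, at 128.7, 86.07 and 125.0 against 171.1, 167.8 and 167.4 in PBS. Its log2(fold change) was -0.51 ± 0.13 with an adjusted p of 0.0297, and the call was lost without any 1 of the PBS libraries (adjusted p 0.0685 to 0.0855). EPAS1 was at 6.285, 5.684 and 8.347 TPM against 4.847, 1.963 and 4.033 TPM, so that every treated library was above every control, with 0.97 ± 0.29 and an adjusted p of 0.0640. Counting intron reads brought EPAS1 to 1.31 with an adjusted p of 0.00843. Same-numbered libraries of 1 µM PBS, Acute 1 h and Chronic 1 h deviated together, and with the replicate number as a block in a fit of these 3 groups EPAS1 passed at 0.99 ± 0.26 (adjusted p = 0.0338) and HIF3A at -0.52 ± 0.13 (adjusted p = 0.0219). Without the block that fit left both short of the threshold (adjusted p = 0.147 and 0.174). In the fit of the whole experiment HIF3A was the 1 member past the test, beside 5.77% of 16541 genes (3.25% higher, 2.52% lower). Progenitor markers were lower in sum at 1 µM Acute 1 h (2374 to 3283 against 3392 to 4325 TPM, 1 of 6 higher and 1 lower past the test), and those of the oligodendrocyte lineage were higher (5.830 to 9.810 against 3.689 to 4.771 TPM, 1 of 3 past the test). Their part in the values of HIF3A and EPAS1 was not tested.

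At 1 µM Acute 24 h no member passed, where 3.31% of all genes did. HIF3A came nearest, at 48.31, 55.69 and 58.71 TPM with -0.42 ± 0.13 and an adjusted p of 0.0954. EGLN3 was at 2.366, 2.077 and 1.989 TPM, all below the 2.712 to 3.789 TPM of PBS, with -0.57 ± 0.25 and an adjusted p of 0.257. EPAS1 was at 4.088, 3.758 and 2.326 TPM and differed by -0.06 ± 0.29.

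At 1 µM Chronic 1 h, EPAS1 rose again and HIF3A fell again. EPAS1 was at 13.82, 9.018 and 8.710 TPM against 4.847, 1.963 and 4.033 TPM, with 1.64 ± 0.29 and an adjusted p of 0.00733. This was the largest change of any member in any of the comparisons with a vehicle, and it passed the rule for DEGs, as did 1.11% of genes. It stayed past the test in all 6 refits without 1 library (1.45 to 1.83) and was lost when the fit held no other groups (adjusted p = 0.0852) or only Acute 1 h besides (adjusted p = 0.0525). With the replicate block in the latter fit EPAS1 passed (1.65, adjusted p = 0.00547), as did HIF3A (-0.55, adjusted p = 0.0285). HIF3A was at 51.26, 36.93 and 51.09 TPM, all below the 57.01 TPM of the lowest control, with -0.56 ± 0.13 and an adjusted p of 0.0320, and lost the call whichever library was left out. The 2 members past the test stand beside 2.58% of all genes (1.75% higher, 0.834% lower). None of the endothelial markers tested passed, with a summed level of 6.886 to 19.39 TPM against 7.986 to 21.82 TPM. Replicate 2 of these groups, with 12.39% and 12.76% mitochondrial reads, held the lowest EPAS1 TPM of PBS and the lowest HIF3A TPM of both. Without replicate 2 of PBS the HIF3A value was -0.53 and the adjusted p 0.0975.

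SLC23A2 was lower at 1 µM Chronic 1 h without passing, at 33.72, 24.36 and 31.63 TPM against 45.52, 35.20 and 36.77 TPM, with -0.36 ± 0.12 and an adjusted p of 0.160. EGLN2, the nuclear prolyl hydroxylase, could hardly be measured in the 1 µM experiment. It ranged from 10.68 to 39.78 TPM within PBS and from 15.67 to 56.24 TPM within Acute 1 h, the lowest of each being replicate 2, and its standard errors there were 0.36. The gene shares its exons with the readthrough gene RAB4B-EGLN2, and 24.8% of its exon reads were uniquely mapped in the median library. At 1 µM Chronic 24 h no gene of any kind passed edgeR's test (0 of 16541), and 608 had an unadjusted p under 0.05. None of those 608 was a member. EPAS1 was back at 5.233, 4.781 and 4.127 TPM (0.40 ± 0.28) and HIF3A at 67.84, 61.83 and 67.19 TPM (-0.13 ± 0.13).

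**Figure D3:**
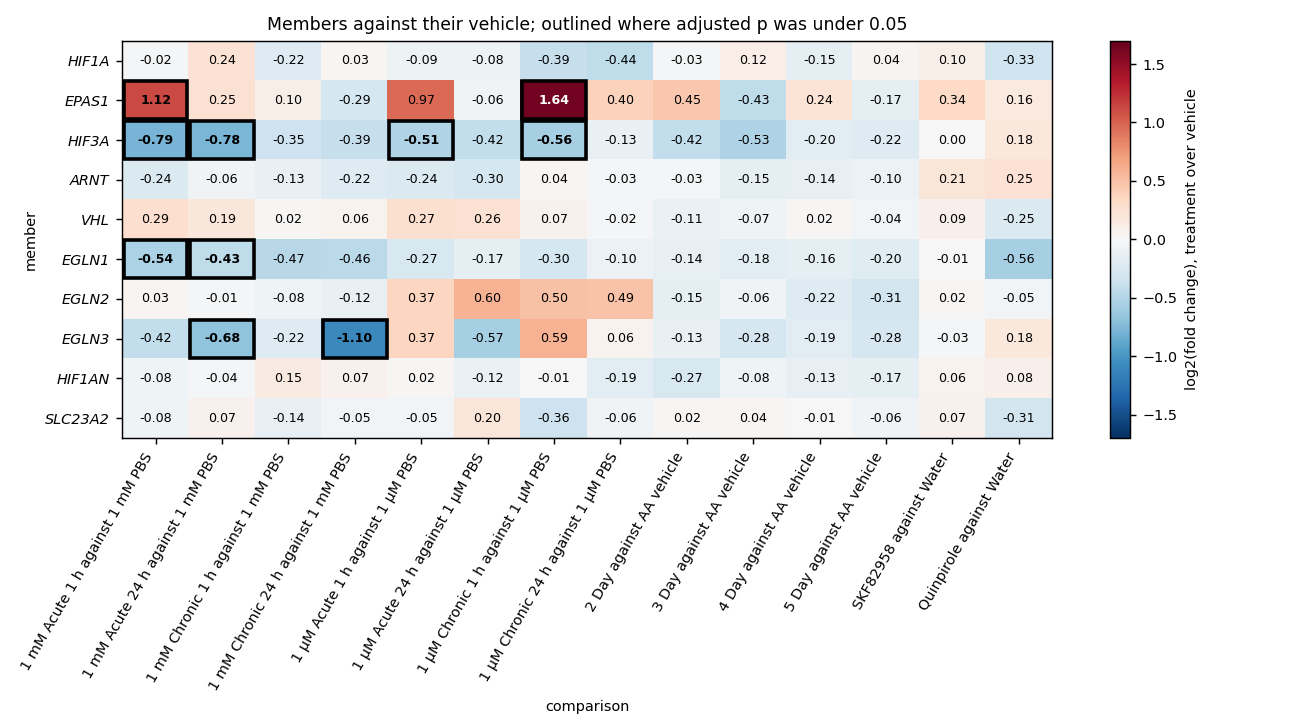
log2(fold change) from edgeR for the 10 members (rows) in the comparisons with a vehicle (columns), with red for higher and blue for lower in the treated group. Bold, outlined values passed the test at an adjusted p under 0.05. The calls are EPAS1 at 1 mM Acute 1 h (1.12) and 1 µM Chronic 1 h (1.64), HIF3A in 4 comparisons with PBS, EGLN1 in 2 and EGLN3 in 2.

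In the time course, with ascorbic acid as the control, no member passed the test on any day. The share of all 16768 genes past the test was 3.88% at 2 Day, 7.37% at 3 Day, 4.38% at 4 Day and 1.63% at 5 Day. HIF1AN, the asparaginyl hydroxylase, came nearest at 2 Day with 13.85, 13.38 and 13.25 TPM against 17.49, 17.96 and 18.00 TPM, a log2(fold change) of -0.27 ± 0.07 and an adjusted p of 0.0538. HIF3A was nearest at 3 Day, at 13.64, 14.27 and 14.71 TPM against 24.10, 24.90 and 16.97 TPM, with -0.53 ± 0.16 and an adjusted p of 0.0570. HIF3A was lower than AA vehicle in every treated library of 2 Day and 3 Day, while 4 Day (17.80, 16.39 and 22.03 TPM) and 5 Day (11.56 and 23.71 TPM) overlapped the control. Several other ways of fitting the same reads put HIF1AN at 2 Day or HIF3A at 3 Day past the test, as listed under the alternatives.

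EPAS1 did not move one way in the time course. It was at 11.09, 12.74 and 9.227 TPM at 2 Day (0.45 ± 0.18, adjusted p = 0.161), at 6.246, 5.910 and 6.252 TPM at 3 Day (-0.43 ± 0.19, adjusted p = 0.180), at 12.56, 8.908 and 9.375 TPM at 4 Day (0.24 ± 0.18) and at 6.251 and 8.245 TPM at 5 Day (-0.17 ± 0.21). The control libraries lay at 8.773, 11.74 and 6.151 TPM, and each day overlapped them. EGLN1 was lower on every day by between 0.14 and 0.20 on the log2 scale without passing, and SLC23A2 differed by at most 0.06 from AA vehicle on that scale. In TPM, 7 of 10 members did not overlap between 2 Day and AA vehicle, all 7 being lower, as held in either direction for 34.4% of genes. HIF1A was among them (107.7 to 118.4 against 123.6 to 129.5 TPM), while on the scale of edgeR, which is relative to the typical gene, it differed by -0.03 ± 0.09. Replicate 2 of 5 Day held 12.08% mitochondrial reads against 5.699% in the other library of that day.

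The agonists left no member past the test. With SKF82958, EPAS1 was at 14.33, 16.22 and 17.08 TPM against 11.19, 11.09 and 13.45 TPM in Water, so that the groups did not overlap, with 0.34 ± 0.19 and an adjusted p of 1.00. In a fit without replicate 1 of Quinpirole, the same difference was 0.34 ± 0.13 with an adjusted p of 0.429. Of all 16132 genes 0.0124% passed for SKF82958, and none passed for Quinpirole. With Quinpirole, the 2 intact libraries held 14.44 and 11.75 TPM of EPAS1, 102.3 and 115.3 TPM of HIF1A, 10.29 and 15.39 TPM of HIF3A, and 57.81 and 86.51 TPM of EGLN1. All 4 genes overlapped Water in those libraries. With replicate 1 the log2(fold change) of EGLN1 was -0.56 ± 0.60 and without it -0.14 ± 0.08, and for HIF1A the values were -0.33 ± 0.70 and 0.15 ± 0.08. In the fit of all agonist libraries, which includes replicate 1 of Quinpirole, no member had an unadjusted p under 0.05 against Water with either agonist.

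Differences between the responses were tested directly. At Acute 1 h, the response to 1 mM minus the response to 1 µM was 0.18 ± 0.37 for EPAS1, -0.26 ± 0.28 for HIF3A and -0.24 ± 0.20 for EGLN1, and no member passed (2.01% of 18390 genes did). The standard errors leave room for differences of about the size of the responses themselves. EGLN3 had the lowest adjusted p of the members (0.216), at -0.76 ± 0.31. At Chronic 1 h, a contrast added after the values were seen, EPAS1 differed by -1.55 ± 0.37 between 1 mM and 1 µM with an adjusted p of 0.103, where 0.0870% of genes passed. Leaving out 1 library at a time gave adjusted p-values of 0.0438 (without replicate 3 of 1 mM PBS) to 0.393, and a fit without replicate 1 of 1 mM Acute 24 h, a library in none of these groups, gave 0.0488. The doses were given in separate experiments, so dose and experiment cannot be told apart in either contrast.

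The fifth daily dose of 1 mM dopamine was measured against PBS (Chronic 1 h) and against AA vehicle (5 Day). The former difference minus the latter was 0.26 ± 0.33 for EPAS1, -0.12 ± 0.33 for HIF3A, -0.27 ± 0.17 for EGLN1, 0.07 ± 0.39 for EGLN3 and -0.08 ± 0.17 for SLC23A2. No member passed, and 0.665% of 18349 genes did. HIF1AN had the lowest adjusted p, 0.368, at 0.32 ± 0.15. With 2 libraries at 5 Day these differences are wide, and the vehicle, the experiment and the sequencing cannot be told apart.

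The members' own transcripts can be set beside 27 known HIF target genes, which include glycolytic enzymes, angiogenic and acid-base genes and regulators of mitochondria. EGLN1 and EGLN3 were left out of this list, and SLC2A1 and P4HA1 are also in the list of ascorbate genes below. Of these, 24 of 27 fell and none rose at 1 mM Acute 1 h, with a median log2(fold change) of -1.15 against 0.01 over all genes, and 7.94% of genes fell. All 27 had every treated library below every PBS library. VEGFA, the angiogenic growth factor, was at 24.5 ± 8.80 TPM against 163 ± 44.2 TPM (SD, n = 3), with -2.67 and an adjusted p of 0.00101. CA9, a membrane carbonic anhydrase, fell by 3.56 on the log2 scale (adjusted p = 0.00220) and ADM, the vasodilator adrenomedullin, by 2.38 (adjusted p = 0.00474). At Acute 24 h, 25 of 27 fell and none rose (median -1.58), led by ADM (-4.39), CA9 (-3.74) and ANKRD37 (-3.69), with 7.09% of genes lower. In an edgeR fit of only the groups compared none passed at Acute 24 h, although 25 had an unadjusted p under 0.05, and DESeq2's Wald test on all groups called 25. These targets fell in comparisons where HIF1A transcripts differed by -0.02 and 0.24, and where EPAS1 rose in the first and not in the second.

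The level of these targets in the vehicles is given beside this fall. The median TPM of the 27 genes was 111.3, 82.37 and 65.60 in 1 mM PBS, 38.07, 27.65 and 37.16 in 1 µM PBS, 27.48, 28.23 and 23.35 in AA vehicle and 20.65, 22.68 and 23.58 in Water. It was 48.06, 38.22 and 36.28 at 1 mM Acute 1 h, within or above the range of the other vehicles. PBS of the 1 mM experiment was thus highest both for these targets and for EGLN1 and EGLN3, and vehicle and experiment cannot be told apart.

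After 5 daily doses of 1 mM, 4 of 27 targets fell at Chronic 1 h (median -0.66) and 13 at Chronic 24 h (median -1.22), and none rose, with 0.814% and 0.545% of all genes lower. At Chronic 1 h these were ANKRD37 (-1.91), DDIT4 (-1.55), KDM3A (-0.81) and BNIP3L. The count at Chronic 1 h was 20 in a fit without replicate 1 of 1 mM Acute 24 h, 22 in a fit of only the groups compared, 13 with DESeq2's Wald test, 2 with limma on log2(TPM + 1) and 0 without replicate 1 or 2 of PBS or without any single library of Chronic 1 h. At Chronic 24 h it was 26 without replicate 1 of 1 mM Acute 24 h, 22 with DESeq2's test and 0 to 17 when 1 library of the groups was left out, with 0 without replicate 1 or 2 of PBS or replicate 3 of Chronic 24 h. At 1 mM, 5 targets were higher at Chronic 1 h than at Acute 1 h and none was lower, led by CA9 (2.85), VEGFA (1.40) and STC2 (1.20), with 5.37% of all genes higher. That count was 1 without replicate 2 or 3 of Acute 1 h and 2 without any single library of Chronic 1 h, but 11 in a fit without replicate 1 of 1 mM Acute 24 h and 18 in a fit of only the groups compared.

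With 1 µM dopamine, 13 of 27 fell at Acute 1 h (median -0.94), 16 at Acute 24 h (-1.11) and 6 at Chronic 1 h (-0.52), and none rose, beside 2.52%, 1.91% and 0.834% of all genes. An edgeR fit of only the groups compared gave 3 at Acute 1 h and 0 at Chronic 1 h, where 12 had an unadjusted p under 0.05 and DESeq2's test on all groups called 7. With the replicate block in the fit of PBS, Acute 1 h and Chronic 1 h, 19 fell at Acute 1 h, and 9 fell and 1 rose at Chronic 1 h, whereas that fit without the block gave 9 and 0. The leading genes at Acute 1 h were HK2, the first enzyme of glycolysis (-1.94, adjusted p = 0.000439), BNIP3, a receptor for mitophagy (-1.71, adjusted p = 3.04e-05), and ALDOA (-1.57). At Chronic 24 h none passed and the median was -0.14. In the time course against AA vehicle the medians lay between -0.15 and -0.03, and the counts past the test were 1 higher and 1 lower at 2 Day, 2 higher and 7 lower at 3 Day, 1 higher and 2 lower at 4 Day and 1 higher at 5 Day. BHLHE40, a clock and stress repressor that is also induced by neuronal activity, was the gene higher on each day (1.06, 1.35, 1.29 and 1.19), and BNIP3 (-0.82) and VEGFA (-0.80) led the lower ones at 3 Day. The share of all genes past the test was 1.89%, 4.77%, 2.58% and 1.23% higher and 1.99%, 2.60%, 1.80% and 0.406% lower on these days. At 3 Day the pericyte and mesenchymal markers were also higher, with 4 of 6 past the test and a summed level of 153.1 to 322.1 TPM against 107.2 to 130.2 TPM, and their part was not tested. In the fit of all agonist libraries neither agonist moved a target past the test (medians -0.06 and -0.17). For SKF82958, 2 targets passed in a fit without replicate 1 of Quinpirole and 3 in a fit of only the groups compared.

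**Figure D4:**
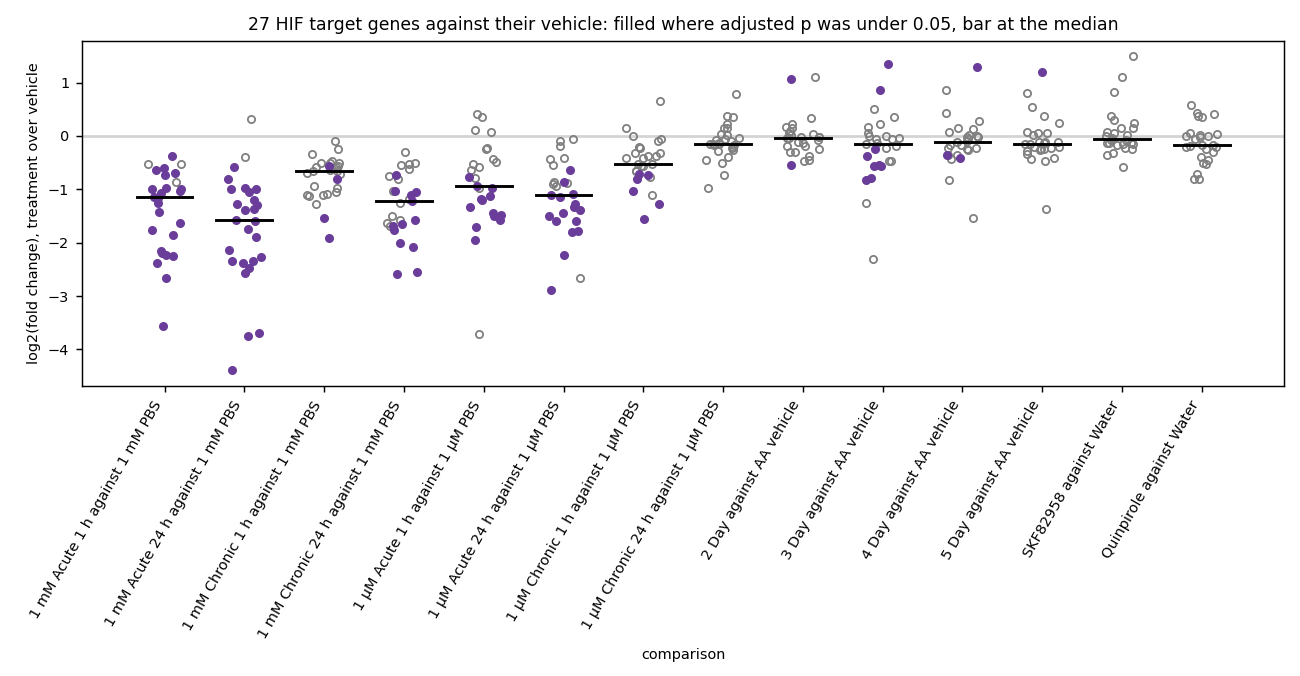
The 27 HIF target genes by comparison with the vehicle. Each point is the log2(fold change) of a gene from edgeR, filled where it passed the test, and the bar is the median. The medians lie at -1.15, -1.58, -0.66 and -1.22 for 1 mM dopamine against PBS, and between -0.15 and -0.03 for the time course against AA vehicle.

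The difference between vehicles was also tested for the targets. In the contrast of Chronic 1 h against PBS minus 5 Day against AA vehicle, the median of the 27 genes was -0.60 and 1 passed, beside 0.441% of genes lower. That gene was BHLHE40 (-1.77 ± 0.42, adjusted p = 0.0473). Without replicate 3 of 1 mM PBS 5 of the 27 passed, and without any other single library of the 4 groups none did. A fit that left out the first library of 1 mM Acute 24 h, a group outside this contrast, gave 5 as well, and DESeq2's test gave 2.

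Genes that handle or use ascorbate were described from a list of 18, of which SLC23A1, the epithelial relative of SLC23A2, is a member. Of 17 tested, 8 fell and 1 rose at 1 mM Acute 1 h, where 7.94% of all genes fell and 8.04% rose. SLC2A1 and P4HA1, both among the 8, are also HIF target genes of the list above. The dehydroascorbate carriers SLC2A1 (-1.63) and SLC2A3 (-1.38), which are glucose transporters, and the collagen prolyl hydroxylase subunit P4HA3 (-1.66) led the fall, while PAM, which amidates peptide hormones with ascorbate, rose by 0.50. At 1 mM Acute 24 h (7.09% of all genes lower, 8.38% higher) 8 fell and 1 rose, namely P4HA3 (-2.47), SLC2A1 (-2.34) and the lysyl hydroxylase PLOD2 (-1.49) among the former and PAM (0.42). At Chronic 1 h PLOD2 alone fell (-0.80), and at Chronic 24 h 3 fell, beside 0.814% and 0.545% of all genes. With 1 µM dopamine 3 of 16 fell at Acute 1 h, namely P4HA2 (-1.39), P4HA1 (-1.33) and PLOD1 (-1.17), and 4 fell at Acute 24 h, 1 at Chronic 1 h and none at Chronic 24 h, beside 2.52%, 1.91%, 0.834% and 0% of all genes. The ascorbate carrier SLC23A2 itself passed in none of the comparisons. In the time course PAM was past the test and higher on every day. Of 16 tested, 1 was higher and 1 lower at 2 Day, 2 were higher at 3 Day, 1 was higher and 1 lower at 4 Day, and 1 was higher at 5 Day. Of all genes 1.89%, 4.77%, 2.58% and 1.23% were higher on these days, and 1.99%, 2.60%, 1.80% and 0.406% lower. The response of PAM differed between the vehicles by -0.72 (adjusted p = 0.00784), and that of PLOD2 by -0.96 (adjusted p = 0.0339).

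Of 16 partners of the pathway, such as subunits of the VHL ligase, coactivators and CITED proteins, 2 passed at 1 mM Acute 1 h and 3 at 1 mM Acute 24 h, beside 16.0% and 15.5% of all genes. At Acute 1 h CITED4, which competes with HIF for its coactivators, rose by 0.64 and the transmembrane prolyl hydroxylase P4HTM fell by 0.48. At Acute 24 h the coactivator CREBBP rose by 0.81, and P4HTM (-0.74) and RACK1 (-0.26) fell. CITED2, the HIF-induced competitor of the same coactivators, fell at 1 µM Acute 1 h (-1.02) and 1 µM Chronic 1 h (-0.83). Its response at Acute 1 h differed between the doses by 1.57 (adjusted p = 0.000849). ARNT2, the neuronal relative of ARNT, rose slightly at 3 Day (0.25) and 4 Day (0.26).

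The genes most like the members other than EPAS1 were found by Pearson's r over log2 CPM after the mean of each experiment was removed, among 15485 genes tested in all 4 experiments. These values describe likeness over libraries that share controls and depth, and carry no test. Over the 52 libraries without replicate 1 of Quinpirole, the 3 genes most like HIF3A were VEGFA (0.801), EML2 (0.801) and STC2 (0.796), and those most like EGLN1 were KDM3A (0.757), DDIT4 (0.688) and HK2 (0.682). VEGFA, STC2, KDM3A, DDIT4 and HK2 are in the list of HIF target genes. EGLN3 was most like INAFM2 (0.640), PDK3 (0.600) and TRPV3 (0.596). With all 53 libraries HIF1A was most like IPO7 (0.988), and without replicate 1 of Quinpirole it was most like KTN1 (0.916), so 1 library decided the former value. SLC23A2 was most like TBC1D5 (0.776), VHL like RPL7L1 (0.730), ARNT like PRPF3 (0.790), HIF1AN like NINL (0.670) and EGLN2 like WDR34 (0.927) over the 52 libraries.

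The genes lie at these positions in the deposited tables (GRCh38). HIF1A is at chr14:61695513-61748259 and EPAS1 at chr2:46293667-46386697, both on the plus strand, and HIF3A is at chr19:46297046-46343433 on the plus strand. ARNT is at chr1:150809713-150876708 and EGLN1 at chr1:231363751-231422287, both on the minus strand. EGLN2 is at chr19:40798996-40808434, VHL at chr3:10141008-10152220 and HIF1AN at chr10:100529072-100559998, all on the plus strand, and SLC23A2 is at chr20:4852356-5010293 on the minus strand. HIF1A overlaps the antisense genes HIF1A-AS1 and HIF1A-AS3 and HIF1AN overlaps NDUFB8 on the opposite strand, and since the strand setting of the counting is not given in the sources used here, reads of such pairs cannot be told apart. Values are of whole genes, with exons and their untranslated ends counted together, and isoforms such as those of HIF3A were not separated.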

How the data were processed

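The 53 libraries of 18 conditions were analysed from their deposited tables, 1 per library with 60676 genes. Per the study's methods, the authors mapped the reads to GRCh38 in CLC Genomics Workbench with an Ensembl annotation and counted reads on exons and introns per gene. The deposited TPM, a length-scaled transcript abundance, was made by the authors from exon reads and exon length. The strand setting and the sequencing provider of each library are not given in the sources used here. The third library of 5 Day was not analysed here, nor was CGS21680.

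The deposited exon read counts were compared with the quasi-likelihood test of edgeR (version 4.0.16, R 4.3.3) after TMM scaling and filterByExpr (minimum count 10, total 15), with the groups of an experiment in 1 fit and Benjamini-Hochberg adjustment over all genes tested. Passing means an adjusted p under 0.05. Errors of fold changes are standard errors. Nothing in the labels says that replicates were separate differentiations, so p-values measure the spread between these libraries. Same-numbered libraries deviated together (correlation of deviations from the group means 0.119 to 0.446 in 9 of 9 pairs) among 1 µM PBS, Acute 1 h and Chronic 1 h, so those numbers were used as a block. No other compared groups met this rule. The block comes from the data and not from the labels. Replicate 2 of each of these groups held 12.39% to 12.76% mitochondrial reads. With means of 3 libraries, a deviation shared by replicate 2 alone shifts the other deviations alike. The correlations therefore cannot show that every number pairs its libraries. The members and gene lists were chosen with earlier results of these data known. All members are named, and from a list at most 3 past the test per direction, by size of change. The alternatives, some with limma 3.58.1 and DESeq2 1.42.0, are given with the results that depend on them. The test was checked on simulated data. At 1 mM Acute 1 h it found 67 of 99 genes changed by 1 on the log2 scale and 86 of 97 changed by 2, with 3 false calls among 17528 genes. In the simulation of 1 µM Acute 1 h it found 50 of 98 and 81 of 98. For 2 Day the counts were 77 of 99 and 95 of 99, and for SKF82958 47 of 99 and 67 of 97. False calls in these simulations numbered 3, 7 and 5. The simulation held no library that stands apart and no shared deviation, so it does not describe the test where real libraries deviate so. The genes most like EPAS1 are not reported here.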

Additional observations from a re-analysis of the deposited data

Results flagged for a closer look

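For 3 HIF target genes the response differed between experiments by a direct test. INSIG2, a regulator of sterol synthesis, fell at 1 mM Acute 1 h (-1.16) and was at 0.11 at 1 µM Acute 1 h, a difference of -1.232 ± 0.319 (adjusted p = 0.0409). DDIT4, an inhibitor of mTORC1, was at -2.16 and -0.58 in the same comparisons, a difference of -1.563 ± 0.402 (adjusted p = 0.0389). BHLHE40 was at -0.57 at 1 mM Chronic 1 h against PBS and at 1.19 at 5 Day against AA vehicle, a difference of -1.769 ± 0.419 (adjusted p = 0.0473). The INSIG2 and DDIT4 calls were both lost without replicate 1 or 2 of 1 mM PBS, replicate 2 or 3 of 1 mM Acute 1 h, or replicate 1 or 2 of 1 µM PBS. INSIG2 alone was lost without replicate 3 of 1 µM PBS, and DDIT4 alone without replicate 1 of 1 µM Acute 1 h. The BHLHE40 call was lost without replicate 1 or 2 of 1 mM PBS or any library of the other 3 groups. Dose or vehicle and experiment cannot be told apart in these contrasts.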

How the results depend on the processing

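Of 3093 recomputed values of members, none past the test in either setting changed its sign, 68 lost a call and 78 gained one, and 237 that never passed changed sign. The counts of members past the test changed by more than 1.5 times in these settings, and the cause was not tested. At 1 mM Acute 1 h (3 members) DESeq2's Wald test gave 5, a fit without replicate 1 of 1 mM Acute 24 h 5 and a fit of only the groups compared 6, and leaving out 1 library gave 1 to 2. At 1 mM Acute 24 h (3) no filter gave 1, limma on log2(TPM + 1) 1, the replicate block 1 and only the groups compared 0, and leaving out 1 library 0 to 4. At 1 mM Chronic 1 h (0) DESeq2's test gave 1, the fit without replicate 1 of 1 mM Acute 24 h 2 and only the groups compared 3. At 1 mM Chronic 24 h (1) total gene reads, uniquely mapped gene reads and limma gave 0, the fit without replicate 1 of 1 mM Acute 24 h 2, and leaving out 1 library 0 to 1. For 1 mM Chronic 1 h against Acute 1 h (1) total gene reads gave 5, uniquely mapped gene reads 4, DESeq2's test 2, the fit without replicate 1 of 1 mM Acute 24 h 4 and only the groups compared 5, and leaving out 1 library 0 to 1. At 1 µM Acute 1 h (1) total gene reads gave 4, uniquely mapped gene reads 3, DESeq2's test 2, the replicate block in a fit of PBS, Acute 1 h and Chronic 1 h 2, and that fit without the block, no filter, limma and only the groups compared 0, and leaving out 1 library 0 to 1. At 1 µM Acute 24 h (0) DESeq2's test gave 1. At 1 µM Chronic 1 h (2) no filter and limma gave 1, only the groups compared and the fit of PBS, Acute 1 h and Chronic 1 h without the block 0, and leaving out 1 library 1 in all 6 refits. At 2 Day (0) DESeq2's size factors, DESeq2's test, at least 10 exon reads in every library, uniquely mapped exon reads and only the groups compared each gave 1 (HIF1AN), and no filter 2. At 3 Day (0) total gene reads, uniquely mapped gene reads, DESeq2's test, at least 10 exon reads in every library, uniquely mapped exon reads and only the groups compared each gave 1 (HIF3A), no filter 2, and leaving out 1 library 0 to 2, with EPAS1 and HIF3A past the test without replicate 3 of AA vehicle. At 4 Day (0) only the groups compared gave 1, and at 5 Day (0) no filter gave 1 and leaving out 1 library 0 to 1. For the dose difference at Acute 1 h (0) total and uniquely mapped gene reads gave 3, and for the vehicle difference (0) the fit without replicate 1 of 1 mM Acute 24 h gave 1.

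In CPM in place of TPM the ratio of the highest to the lowest condition was 1.398 for HIF1A, 1.312 for VHL and 1.349 for HIF1AN, and 2 of 10 members kept both extreme conditions. Outside 1 µM PBS, Acute 1 h and Chronic 1 h, the same-numbered libraries of no comparison all deviated together. At 1 mM r was over 0.1 in 3 of 30 pairs, in the time course in 4 of 26 and with agonists in 1 of 9. The replicate block in the fits of whole experiments changed no other count of members by over 1.5 times. Fits without a library of another group, uniquely mapped exon reads, the fits of PBS, Acute 1 h and Chronic 1 h of 1 µM and the dose difference at Chronic 1 h were chosen after seeing the data. Only exon reads of at least 38 per library stood behind EGLN3 and of at least 43 behind EPAS1, apart from replicate 1 of Quinpirole.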
